A study of Mus musculus with 6 samples.

Results

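The RNAs described here are 8 long non-coding or host transcripts of mouse brain: Malat1, Neat1, Miat, Gas5, Snhg1, Snhg11, A930011O12Rik and Ftx. They are the 8 rows, of 43346 in the deposited table, whose gene symbol equals 1 of these names, and all 8 had enough reads to be tested. They were chosen with the difference between the genotypes already known, so that RNAs that fall could be set beside RNAs that do not. Their difference between genotypes is therefore given as a description. Calls by the fit over all tested genes only sort the 8 RNAs and are no test of their own. RNA came from 3 adult male mice deficient for Kdm5c, an X-linked gene that encodes a demethylase of histone H3 lysine 4, and from 3 adult male wild-type littermates. Both groups were of mixed C57BL/6 and 129 strain in equal parts, with heterozygous deficient mothers on C57BL/6 and wild-type fathers of strain 129, and the tissue was brain. The labels describe neither the allele nor the brain region, and each of the 6 libraries came from 1 mouse.

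Long non-coding RNAs of this kind act in several compartments of the nucleus. Malat1 collects in nuclear speckles, where splicing factors are stored; Neat1 builds paraspeckles, bodies made around the RNA itself; and Miat, also called Gomafu, forms its own domains in nuclei of neurons. Gas5, Snhg1 and Snhg11 are hosts of small nucleolar RNAs, which are cut from their introns and guide chemical modification of ribosomal and other RNAs, while A930011O12Rik and Ftx are hosts of microRNAs. Ftx also lies in the X inactivation centre, the region that controls silencing of an X chromosome in female cells.

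Depth was similar between libraries, from 21090278 to 24178704 reads in deficient and from 20221675 to 24555412 in wild-type mice. Each p-value sets the difference between genotypes against the spread between these mice, estimated with information shared across genes. Kdm5c itself had 73.9, 65.5 and 78.9 CPM in deficient brains, against 77.6, 82.8 and 84.0 CPM in wild-type brains, which overlapped (edgeR's adjusted p = 0.196); a count over the whole gene does not check a genotype whose allele is not described. Over all 15127 tested genes 371 (2.45%) were higher and 375 (2.48%) lower in deficient brain at an adjusted p under 0.05 by edgeR. An unadjusted p under 0.05 was found by that test in 3760 of the 15127. Counts in the gene lists below are to be read beside these numbers. Counts from DESeq2 or with a mouse removed belong beside the totals or ranges of those fits in the last section.

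Levels are in CPM, counts scaled to the library total after adjustment by TMM. In deficient brain 6 of the 8 RNAs were lower and none was higher, against 4.93% of all 15127 tested genes changed in either direction and 2.48% lower (adjusted p under 0.05, quasi-likelihood test of edgeR, adjusted by Benjamini and Hochberg's method over all genes tested). Malat1, A930011O12Rik, Ftx, Snhg11, Miat and Snhg1 fell, and their mean levels were 25.1 to 58.8% below those of wild-type brain. Neat1 and Gas5 did not pass. In the 6 RNAs that fell every deficient mouse was below every wild-type mouse, as was true of 16% of all tested genes. The number called lower was 5 without deficient mouse 1 or 2 and 3 without deficient mouse 3. It was 4 without wild-type mouse 3 and 0 without wild-type mouse 1 or 2, in fits that also held fewer mice. Over all tested genes the number called lower moved widely between these fits too, and its range is given in the last section. The median log2 fold change of the 8 was -0.76, while that of all tested genes was 0.0012, and since the members were picked on this contrast nothing is read from either value. Of the 6 RNAs called, Snhg1 stood nearest to the threshold, and the members outside it were Gas5 and Neat1.

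**Figure D1:**
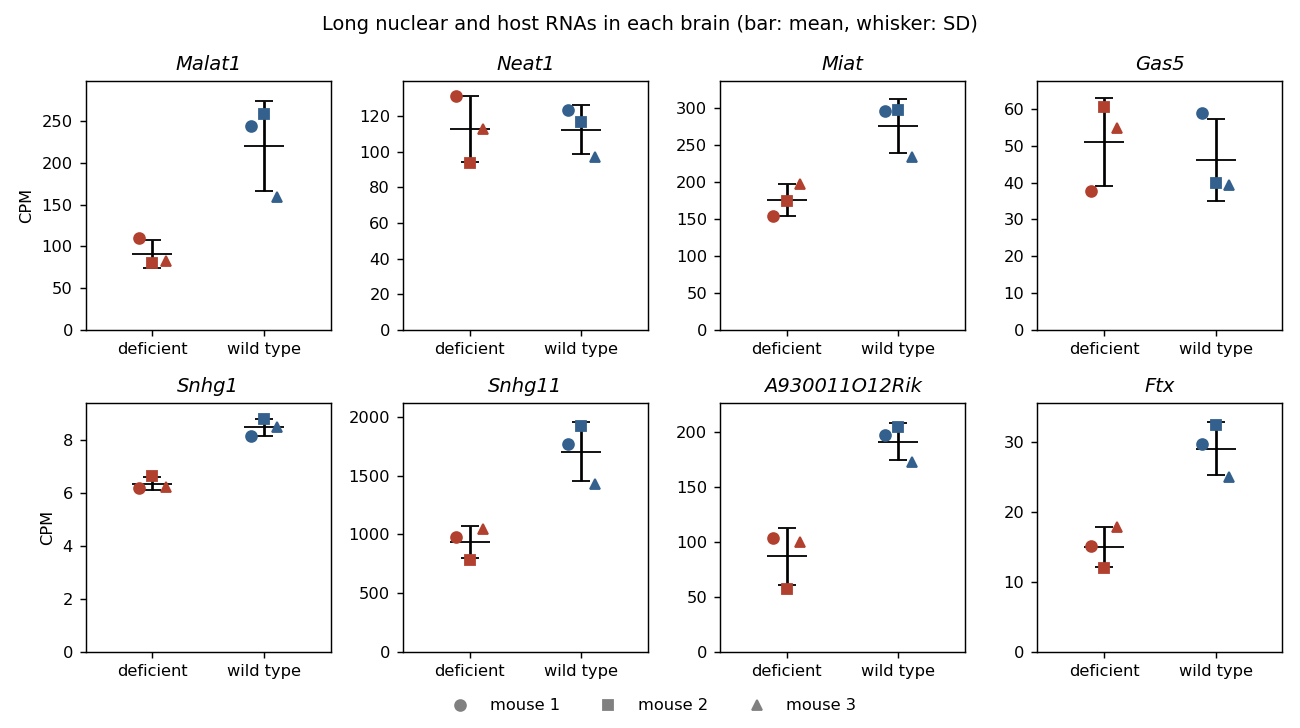
Level of each of the 8 RNAs in CPM (reads of the gene scaled to the TMM-adjusted library total, y axis from 0, own scale per panel) in 3 deficient and 3 wild-type brains. Symbols mark the mice, bars the means and whiskers the SD; the genotypes overlap in Neat1 and Gas5 and in none of the other 6.

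The 3′ ends of Malat1 and Neat1 are shown first because these neighbouring genes share an unusual end, and 1 of them fell while the other did not pass. The long forms of both lack a poly(A) tail: ribonuclease P, an enzyme that matures transfer RNAs, cuts each after an A-rich stretch encoded in the genome, which folds back on stretches rich in U. The last 96 bases of each RNA up to that cut, read from the GENCODE M21 transcripts and written as DNA, end in the same 11 bases, which occur 1 time in each transcript. Capitals mark the A-rich ending and, in Malat1, 2 runs of at least 5 T.
Malat1, chr19:5795982-5796077, minus strand, GRCm38: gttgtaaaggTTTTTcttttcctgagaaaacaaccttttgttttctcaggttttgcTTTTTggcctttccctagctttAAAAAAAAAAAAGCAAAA
Neat1, chr19:5824708-5824803, minus strand, GRCm38: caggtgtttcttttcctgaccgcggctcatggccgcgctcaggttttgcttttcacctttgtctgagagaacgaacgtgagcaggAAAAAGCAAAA
The longest run of A in this window was 12 bases in Malat1 and 5 in Neat1. The annotated Malat1 transcript continues for 292 bases past the shared ending and that of Neat1 for 0.

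The promoters of 4 members are shown because 3 of these RNAs fell and the fourth did not. The windows of 300 bases surround the start that RefSeq gives on GRCm38.p6, and 6 of the 8 members matched that table. Of 7 motifs searched on both strands, capitals mark each match. The motif TATAAA is the TATA box known from promoters with a focused start. The motif CCAAT is the site bound by the factor NF-Y. The motif GGGCGG is the GC box of Sp1, and CACGTG is the E-box of many helix-loop-helix factors. The motif GCGGGA forms part of sites of E2F factors, and TGACGTCA is the response element to cyclic AMP. The last was the motif of NRF1, found in no window of a member.
Malat1, chr19:5802623-5802922, minus strand: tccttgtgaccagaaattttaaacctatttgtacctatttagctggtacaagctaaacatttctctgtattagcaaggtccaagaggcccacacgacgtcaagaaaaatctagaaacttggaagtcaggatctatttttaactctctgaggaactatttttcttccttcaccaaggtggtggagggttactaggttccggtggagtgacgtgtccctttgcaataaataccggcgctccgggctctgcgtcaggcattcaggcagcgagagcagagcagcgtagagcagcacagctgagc
Snhg11, chr2:158375463-158375762, plus strand: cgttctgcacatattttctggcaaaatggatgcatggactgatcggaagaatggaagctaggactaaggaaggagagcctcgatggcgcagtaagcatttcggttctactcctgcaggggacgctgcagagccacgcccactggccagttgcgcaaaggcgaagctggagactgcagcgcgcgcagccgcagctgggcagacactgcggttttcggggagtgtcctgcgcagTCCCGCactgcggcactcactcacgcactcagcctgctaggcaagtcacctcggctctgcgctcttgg
Miat, chr5:112228899-112229198, minus strand: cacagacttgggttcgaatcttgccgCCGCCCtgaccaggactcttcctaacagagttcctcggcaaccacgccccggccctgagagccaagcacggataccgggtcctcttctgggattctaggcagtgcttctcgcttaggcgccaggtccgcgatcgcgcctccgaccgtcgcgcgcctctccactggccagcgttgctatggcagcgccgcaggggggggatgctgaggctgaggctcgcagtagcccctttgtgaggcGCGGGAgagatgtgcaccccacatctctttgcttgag
Gas5, chr1:161034916-161035215, plus strand: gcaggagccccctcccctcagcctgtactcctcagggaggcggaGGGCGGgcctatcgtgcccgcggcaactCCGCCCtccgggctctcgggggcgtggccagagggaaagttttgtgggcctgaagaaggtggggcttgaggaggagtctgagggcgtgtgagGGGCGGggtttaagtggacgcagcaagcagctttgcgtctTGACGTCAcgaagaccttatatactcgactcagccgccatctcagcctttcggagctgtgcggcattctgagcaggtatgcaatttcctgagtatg
The Malat1 window held none of the 7 motifs and 10 CG pairs, and the Ftx window likewise none and 12 CG pairs, where the median of 32851 promoters was 7. RefSeq gives Gas5 a second window, not printed. GCGGGA matched 1 time each in the windows of Snhg11 and Miat and in that second window of Gas5, and 20% of all promoters held it. GGGCGG matched 1 time each in Miat and Snhg1, 3 times in the printed window of Gas5 and 5 times in the other, against 35.7% of all promoters with at least 1 match. TATAAA matched 1 time in Snhg1 and in 13.6% of promoters, and CCAAT, held by 37.4%, matched in no window of a member. TGACGTCA was found in the printed window of Gas5 and in 1.79% of promoters, and no window of a member held CACGTG, which 7.15% of promoters had. A match is a description of letters only.

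Malat1 is a single-exon gene of 6983 bases on the minus strand of chromosome 19, at 5795690 to 5802672 (GRCm38). It had 110, 79.6 and 82.7 CPM in the deficient brains, against 244, 258 and 159 CPM in the wild-type brains. All 3 deficient mice lay below the lowest wild-type mouse, and among wild-type mice the third was well below the others. The means were 90.7 ± 16.6 CPM in deficient and 220.3 ± 53.8 CPM in wild-type brain (SD, n = 3 each), a log2 fold change of -1.28 ± 0.18 (SE). Among the 4726 tested genes that averaged 50 CPM or more, its fold change was the second lowest and that of A930011O12Rik the third. Both places follow in part from the choice of members on this contrast. The log2 fold change of Malat1 ran from -1.47 to -1.15 when each mouse was left out. Its call was lost without deficient mouse 3 and without wild-type mouse 1 or 2.

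Neat1, a single exon of 20771 bases at 5824708 to 5845478 on the same strand of chromosome 19, lies 22036 bases from Malat1. Its levels were 131, 93.9 and 113 CPM in deficient brains, against 124, 117 and 97.2 CPM in wild-type brains, and the genotypes overlapped throughout. The log2 fold change was 0.00057 ± 0.12 (SE), and its sign turned with the scaling and with the mouse left out, between -0.12 and 0.12. Counts per gene do not separate its short form, which has a poly(A) tail, from the long form whose end is shown. The ratio of Malat1 CPM to Neat1 CPM, which does not depend on the scaling of the libraries, was 0.837, 0.848 and 0.733 in the deficient mice, against 1.97, 2.21 and 1.63 in the wild-type mice. That this ratio was lower in every deficient than in every wild-type mouse follows in part from the choice of members. CPM are not scaled by length, and Neat1 has 20771 exon bases against 6983 in Malat1. A ratio of 1 therefore does not mark equal levels, and per kilobase Malat1 was above Neat1 in every mouse.

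Frmd8, a cofactor gene of shedding proteases 4224 bases beyond Neat1, did not pass, with a log2 fold change of 0.11 ± 0.09 (SE, edgeR's adjusted p = 0.463). Of 15 tested genes listed from the wider neighbourhood 1 rose and none fell by edgeR or DESeq2, at a median log2 fold change of -0.06. An unadjusted p under 0.05 was found in 6 of them, against 3760 of all 15127 tested genes (edgeR). The gene that rose was Ehbp1l1, known from sorting of proteins to the cell surface, at 0.40 ± 0.07 (SE, edgeR's adjusted p = 0.0228), and its call was lost with any of the wild-type mice removed.

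Miat spans 112213228 to 112229395 on the minus strand of chromosome 5. It had 154, 174 and 198 CPM in deficient brains, against 296, 297 and 233 CPM in wild-type brains. The highest deficient mouse and the lowest wild-type mouse were separated by less than the range among deficient mice. The means were 175 ± 21.8 CPM in deficient and 276 ± 36.6 CPM in wild-type brain (SD, n = 3 each), a log2 fold change of -0.65 ± 0.11 (SE), and the call was lost without wild-type mouse 1 or 2. The nearest tested gene, Crybb1, a crystallin gene of the lens on the opposite strand 26420 bases away, went the other way: it had 124, 145 and 116 reads in deficient mice, against 47, 26 and 35 reads in wild-type mice. That is a log2 fold change of 1.86 ± 0.16 (SE, edgeR's adjusted p = 0.00138), called in all 6 fits with a mouse removed. Exons of Miat overlap 5 other annotated genes over 2828 bases, among them the antisense gene Gm26953, which was listed at 0 reads in every mouse.

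**Figure D2:**
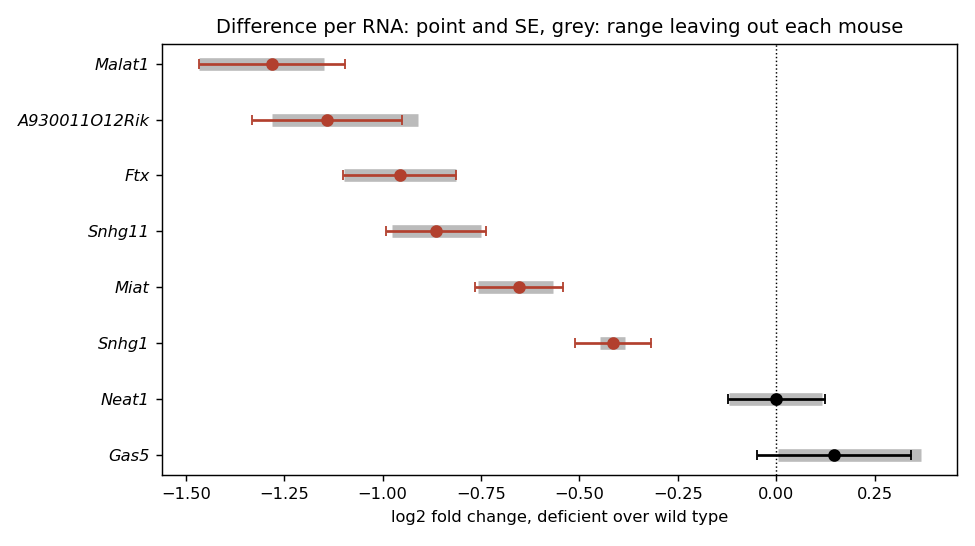
Log2 fold change of deficient over wild-type brain for each RNA (x axis), with its SE as whiskers. Grey bars give the range over 6 fits, each with 1 mouse removed; red points fell with all mice, and the grey bar of Neat1 crosses 0.

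Among the snoRNA hosts the 3 RNAs differed in what they did. Snhg11 lies on chromosome 2 at 158375638 to 158386145, plus strand, and is known as a transcript of neurons. Although a snoRNA host, it is given as protein-coding by the annotation. It had 979, 783 and 1047 CPM in deficient brains, against 1767, 1921 and 1427 CPM in wild-type brains, with deficient mouse 2 and wild-type mouse 3 lowest in their groups. Its log2 fold change was -0.86 ± 0.13 (SE), and the call was lost without wild-type mouse 1 or 2. Per kilobase of merged exon it had the most reads of the 8, at 110 CPM per kilobase in deficient and 200.1 CPM per kilobase in wild-type brain.

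Snhg1, on chromosome 19 at 8723475 to 8726443, is a small transcript by level. It had 6.20, 6.63 and 6.22 CPM in deficient brains, against 8.14, 8.81 and 8.48 CPM in wild-type brains. The mice of each genotype lay close together and the gap between the genotypes was wider than either spread. The log2 fold change was -0.41 ± 0.10 (SE), just past the threshold; the call was lost whichever mouse was left out and with DESeq2.

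Gas5, on chromosome 1 at 161034422 to 161038539, has exons that are spliced into an RNA degraded during translation, and the RNA can bind the glucocorticoid receptor. It had 37.7, 60.6 and 55.0 CPM in deficient brains, against 58.9, 39.9 and 39.4 CPM in wild-type brains. Deficient mouse 1 was below every wild-type mouse and wild-type mouse 1 almost as high as the highest deficient mouse. The log2 fold change was 0.15 ± 0.20 (SE), from 0.0046 without deficient mouse 2 to 0.37 without wild-type mouse 1, and it did not pass in any of these fits. The span of Gas5 overlaps that of Zbtb37, a zinc finger gene on the opposite strand, without any shared exon base. Zbtb37 fell with a log2 fold change of -0.47 ± 0.08 (SE, edgeR's adjusted p = 0.0213); that call was lost with any of the wild-type mice removed. Rc3h1, which lies 59444 bases from Gas5 and encodes an RNA-binding ubiquitin ligase, had -0.02 ± 0.05 (SE, edgeR's adjusted p = 0.876).

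The neighbours of the other 2 hosts did not pass. Slc3a2, an amino acid transporter subunit gene 106 bases from Snhg1 on the opposite strand, had a log2 fold change of 0.12 ± 0.04 (SE, edgeR's adjusted p = 0.152), and Wdr74, on the other side, -0.08 ± 0.08 (SE, edgeR's adjusted p = 0.554). Beside Snhg11, 9430008C03Rik had -0.57 ± 0.18 (SE, edgeR's adjusted p = 0.0979) and Ralgapb, which restrains a small GTPase, -0.07 ± 0.06 (SE, edgeR's adjusted p = 0.495).

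A930011O12Rik, called Mir124a-1hg in the annotation and also known as Rncr3, is the host of a miR-124 hairpin and lies on chromosome 14 at 64587331 to 64593961. miR-124 is a microRNA abundant in neurons. The host had 103, 57.0 and 100.4 CPM in deficient brains, against 197, 204 and 173 CPM in wild-type brains. Deficient mouse 2 was far below the other deficient mice, and all of them were below the wild-type mice. The means were 86.9 ± 25.9 CPM in deficient and 191 ± 16.6 CPM in wild-type brain (SD, n = 3 each), a log2 fold change of -1.14 ± 0.19 (SE). Without deficient mouse 2 it was -0.91 and still called; the call was lost without deficient mouse 3 and with any of the wild-type mice removed.

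Markers of cerebellar granule cells moved with this low value. Summed over 8 of 8 markers, all of them detected, they reached 1059.8, 132 and 795 CPM in deficient brains, against 1136, 1205 and 1369 CPM in wild-type brains, without overlap. Deficient mouse 2 was by far the lowest, and their part in the level of A930011O12Rik was not tested. In RNA from whole tissue, fewer cells of a type and less RNA per cell cannot be told apart, for this or any other RNA described. A second host of miR-124, Mir124-2hg, had 147, 149 and 111 reads in deficient mice, against 165, 139 and 160 reads in wild-type mice, which overlapped, with a log2 fold change of -0.16 ± 0.13 (SE, edgeR's adjusted p = 0.452). Mir124a-3 had no read in any mouse. Of 30 genes reported as targets of miR-124, DESeq2 called 1 lower and 8 had an unadjusted p under 0.05, at a median log2 fold change of -0.04. By edgeR none fell, beside 2.48% of all tested genes, and 2 rose, beside 2.45%. They were Lhx2, a homeobox gene of forebrain progenitors, at 0.56 ± 0.11 (SE, edgeR's adjusted p = 0.0341), and Egr1, an activity-induced transcription factor gene, at 0.43 ± 0.10 (SE, edgeR's adjusted p = 0.0447); Lhx2 lost its call in 4 and Egr1 in 5 of the 6 fits with a mouse removed. Next to A930011O12Rik, at 131428 bases, Msra, which repairs oxidised methionine, rose with 0.37 ± 0.06 (SE, edgeR's adjusted p = 0.0226), a call held in 2 of these 6 fits, and Kif13b, a motor protein gene, had -0.18 ± 0.10 (SE, edgeR's adjusted p = 0.283).

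Ftx lies on the minus strand of the X chromosome at 103560907 to 103623790. It had 15.2, 11.96 and 17.8 CPM in deficient brains, against 29.6, 32.4 and 25.02 CPM in wild-type brains. No deficient mouse reached the lowest wild-type mouse, and the means were 14.97 ± 2.91 CPM in deficient and 29.0 ± 3.75 CPM in wild-type brain (SD, n = 3 each). The log2 fold change was -0.96 ± 0.14 (SE), and the call was lost without wild-type mouse 1 or 2.

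The 5 mature microRNAs that RefSeq places in its span are shown because their genes lie inside the transcript that fell. They were taken from RefSeq on GRCm38.p6, with the seed, bases 2 to 8, in capitals. No seed is shared between them, and miR-374c lies on the strand opposite to Ftx and miR-374b.
mmu-miR-374b-5p: aUAUAAUAcaaccugcuaagug
mmu-miR-374b-3p: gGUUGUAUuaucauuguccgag
mmu-miR-374c-5p: aUAAUACAaccugcuaagug
mmu-miR-374c-3p: aCUUAGCAgguuguauuau
mmu-miR-421-5p: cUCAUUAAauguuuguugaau
The microRNAs themselves were not measured in these libraries, and the rows of Mir421 and Mir374b held no read in any mouse. The same held for the small RNA genes inside the other members: of 37 annotated genes in the table that overlap the span of a member, 35 had no read in any mouse, among them 17 snoRNA and 4 microRNA genes.

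Other genes of the X inactivation centre did not pass. Of 7 tested besides Ftx none was called by edgeR or limma-voom and 1 was called higher by DESeq2, 2 had an unadjusted p under 0.05, and the median log2 fold change was -0.01. Jpx, an activator gene of Xist whose span overlaps that of Ftx on the opposite strand, had 87, 81 and 78 reads in deficient mice, against 109, 100 and 99 reads in wild-type mice, with a log2 fold change of -0.30 ± 0.13 (SE, edgeR's adjusted p = 0.194). The deficient mice were all below the wild-type mice, at low counts. Chic1, the nearest tested gene on 1 side of Ftx at 164815 bases, had -0.07 ± 0.06 (SE, edgeR's adjusted p = 0.502). Xist, the RNA that coats the inactive X chromosome in females, was listed at 0 in all 6 males.

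Per kilobase of merged exon, the order of the mean levels over all mice was Snhg11 at 155 CPM per kilobase, A930011O12Rik at 29.0, Miat at 24.2, Malat1 at 22.3, Gas5 at 12.9, Neat1 at 5.42, Snhg1 at 2.497 and Ftx at 2.16. This is an order of reads in libraries made by an mRNA protocol. How well that protocol captures the long forms of Malat1 and Neat1, which lack a poly(A) tail, is not known here. Their place may therefore differ from their abundance in brain. In wild-type brain alone A930011O12Rik had 39.8, Malat1 31.5 and Miat 29.7 CPM per kilobase, and the values of Malat1 (34.9, 37.0 and 22.7) and Miat (31.9, 32.0 and 25.1) overlapped. In the order, A930011O12Rik and Miat overlapped in deficient but not in wild-type brain, as did Malat1 and Gas5. Snhg1 and Ftx overlapped in wild-type but not in deficient brain, and Miat and Malat1 did not overlap in deficient brain. Gas5 and Neat1 did not overlap in either genotype. These 8 RNAs together held 0.155, 0.125 and 0.160% of all reads in deficient brains, against 0.274, 0.291 and 0.215% in wild-type brains.

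Apart from the genotypes, the 8 RNAs differed in how much mice of a single genotype varied. The SD of log2 CPM within genotype was 0.32 for Malat1, where the median of the 500 tested genes of nearest level was 0.064, which placed Malat1 at the 98.6th percentile of those genes. Gas5 (0.35), A930011O12Rik (0.35), Ftx (0.24), Snhg11 (0.22), Neat1 (0.21) and Miat (0.19) stood at the 96.4th to the 99th percentile in the same way. Snhg1 was the exception, at 0.055 and the 2.4th percentile. This measure does not use the difference between genotypes that chose the RNAs.

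Several RNAs were low in the same mice. In wild-type mouse 3, 7 of the 8 were at the lowest of the wild-type values, all but Snhg1, where 33.5% of all tested genes were lowest in that mouse. In deficient mouse 2, 5 of the 8 were lowest (Malat1, Neat1, Snhg11, A930011O12Rik and Ftx), against 37.1% of tested genes. Neat1, which did not fall, was among the RNAs low in both of these mice. Mitochondrial genes, a rough sign of RNA makeup, held 2.49, 2.59 and 2.62% of reads in deficient brains, against 2.60, 2.58 and 2.56% in wild-type brains.

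**Figure D3:**
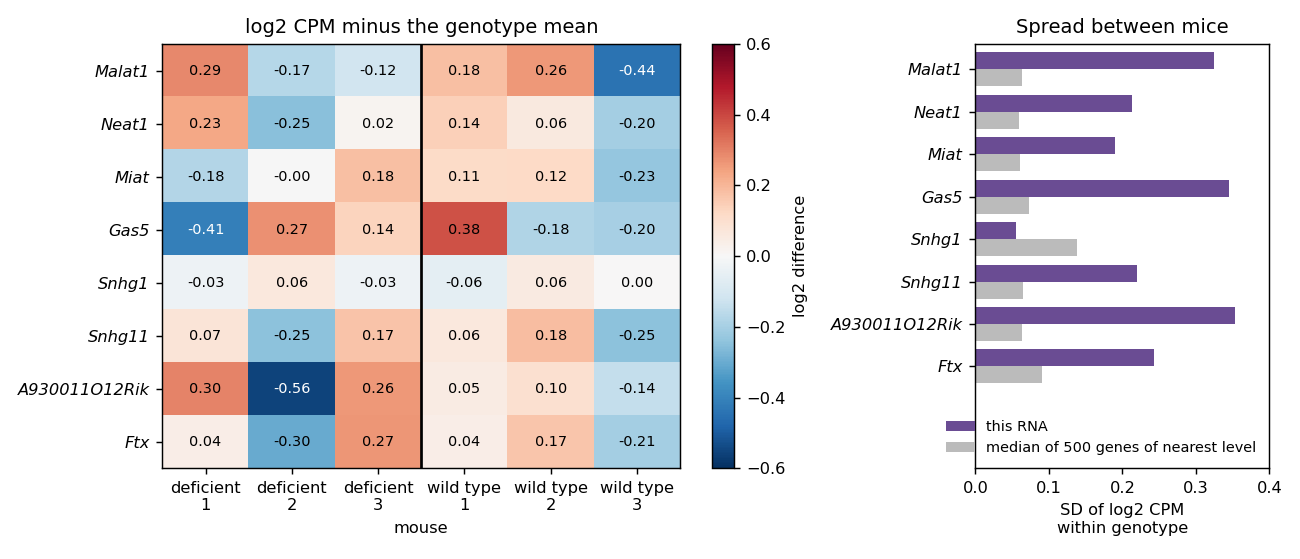
Left, log2 CPM of each RNA in each mouse minus the mean of its genotype (colour and printed value). Right, SD of these values within genotype for each RNA (purple) and the median over 500 tested genes of nearest level (grey); 7 RNAs exceed that median and Snhg1 is below it.

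The genes whose profile over the 6 mice was most like that of Malat1, among those with a mean of at least 10 CPM, included 3 other members. The profile holds the difference between genotypes on which the members were chosen, so likeness among them follows in part from that choice and is a description only. By the root mean square difference of centred log2 CPM they were Meg3 (0.25), A930011O12Rik (0.27), Snhg11 (0.27), Spp1 (0.27) and Ftx (0.27). Meg3, an imprinted nuclear RNA, had 1679, 1448 and 1846 CPM in deficient brains, against 3210.2, 3589 and 2640 CPM in wild-type brains. Spp1 encodes the secreted protein osteopontin. The genes most like A930011O12Rik were A330076H08Rik (0.10), Tle2 (0.13), Grin2c (0.16), Col27a1 (0.17) and Epha8 (0.18). Of these, Tle2, a corepressor gene, had 30.8, 16.5 and 26.6 CPM in deficient brains, against 47.7, 47.0 and 45.5 CPM in wild-type brains. Grin2c, a glutamate receptor subunit gene known from cerebellar granule cells, had 89.3, 42.6 and 81.1 CPM in deficient brains, against 127, 129 and 134 CPM in wild-type brains. Both were selected for a profile near that of the host RNA, so that their low value in deficient mouse 2 follows from the selection.

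Some transcripts of the proteins that share nuclear bodies with these RNAs were also lower. Of 24 genes of nuclear speckle and SR proteins, which help to splice RNA, 5 fell and 1 rose, at a median log2 fold change of -0.20. Across all tested genes 2.48% fell and 2.45% rose. Srrm2, a scaffold of speckles, fell most among those called (-0.45 ± 0.08, SE, edgeR's adjusted p = 0.0226). Son, the other core scaffold, fell by 0.33 ± 0.07 on the log2 scale (SE, edgeR's adjusted p = 0.0319), and Srrm1, Srsf5 and Srsf11 had -0.28, -0.38 and -0.41. Celf3, which encodes an RNA-binding protein, rose at 0.30 ± 0.06 (SE, edgeR's adjusted p = 0.0365). The number lower was 11 with DESeq2, 10 without deficient mouse 1 and 7 without deficient mouse 2. It was 1 without deficient mouse 3 and 0 with any of the wild-type mice removed. Over all tested genes the number lower was also larger with DESeq2 and moved widely with the mouse removed, as given in the last section.

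Of 26 tested genes of paraspeckle proteins 4 fell and 1 rose, beside 2.48% and 2.45% of all tested genes. Their median log2 fold change was -0.10, although Neat1, the RNA they assemble on, did not pass. Rbmx, Tardbp and Fam98a were among those that fell, with log2 fold changes of -0.34, -0.28 and -0.26 and adjusted p from 0.0139 to 0.0473 by edgeR; Rbmx and Tardbp encode RNA-binding proteins that take part in splicing. Celf6, a splicing regulator gene of neurons, rose at 0.68 ± 0.09 (SE, edgeR's adjusted p = 0.0103). The number lower was 4 without deficient mouse 1, 3 without deficient mouse 2, 1 without deficient mouse 3 or wild-type mouse 3, and 0 without wild-type mouse 1 or 2; Celf6 lost its call in these last 2 fits. Sfpq, Nono and Pspc1, which encode core paraspeckle proteins and are named here after their values were seen, had log2 fold changes of -0.16, 0.10 and -0.03 and did not pass.

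Few factors that process or degrade such RNAs passed the test. Of 18 genes for processing or binding the 3′ end of Malat1, 1 rose, Rpp25, a subunit gene of ribonuclease P (0.51 ± 0.11, SE, edgeR's adjusted p = 0.0431, a call held in 2 of 6 fits with a mouse removed), at a list median of 0.02. None of 21 nuclear RNA decay genes passed by edgeR or DESeq2, 2 had an unadjusted p under 0.05, and Zfc3h1 (-0.23 ± 0.06, SE, edgeR's adjusted p = 0.078) and Pabpn1 (-0.44 ± 0.13, SE, edgeR's adjusted p = 0.087) were nearest to the threshold. None of 19 genes of nonsense-mediated decay passed by edgeR, while DESeq2 called 1 lower and 3 had an unadjusted p under 0.05. Smg1, the kinase of that pathway, had -0.43 ± 0.12 (SE, edgeR's adjusted p = 0.0731). Xrn1, an exonuclease gene, had -0.18 ± 0.07 (SE, edgeR's adjusted p = 0.157). The median log2 fold change was -0.02 for nuclear decay and -0.04 for nonsense-mediated decay.

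The remaining snoRNA hosts, besides the 3 members, were 24 tested genes, at a median log2 fold change of -0.07. Among them 1 fell and 1 rose, beside 2.48% and 2.45% of all tested genes. Prpf39, a splicing factor gene, fell (-0.44 ± 0.09, SE, edgeR's adjusted p = 0.0277) and Nol3, an inhibitor of cell death, rose (0.45 ± 0.09, SE, edgeR's adjusted p = 0.0341), calls held in 2 of 6 fits with a mouse removed. None of 15 snoRNP protein genes passed by edgeR or DESeq2 and 1 had an unadjusted p under 0.05 (median log2 fold change 0.06), with Nop56 at -0.18 ± 0.05 (SE, edgeR's adjusted p = 0.0861) and Nhp2 at 0.17 ± 0.09 (SE, edgeR's adjusted p = 0.26). None of 25 translation factor genes with the TOP start that Gas5 also has passed by edgeR, while DESeq2 called 1 higher and 4 had an unadjusted p under 0.05 (median log2 fold change 0.07), with Eef1a1 at 0.23 ± 0.06 (SE, edgeR's adjusted p = 0.0553) and Eif3l at 0.15 ± 0.05 (SE, edgeR's adjusted p = 0.0861).

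Among 32 other tested RNAs listed as long non-coding, 4 fell and 2 rose, beside 2.48% and 2.45% of all tested genes. Their median log2 fold change was -0.15. Meg3 (-0.92 ± 0.12, SE, edgeR's adjusted p = 0.0102) and Mirg (-0.76 ± 0.11, SE, edgeR's adjusted p = 0.0164) come from the same imprinted locus, and A330023F24Rik (-0.68) and Firre, an X-linked RNA that keeps chromosomes close in the nucleus (-0.56), fell near the threshold. Pantr1 (0.65 ± 0.14, SE, edgeR's adjusted p = 0.0399) and 6330403K07Rik (0.88 ± 0.06, SE, edgeR's adjusted p = 0.000379) rose; the annotation gives 6330403K07Rik as protein-coding. The call of 6330403K07Rik held in all 6 fits with a mouse removed, that of Meg3 in 5, that of Mirg in 3 and those of the other 3 genes in 2. Of 30 rows of RNAs known to lack a poly(A) tail, 4 had enough reads, and besides Malat1 these were the histone genes Hist1h1c (0.03 ± 0.09, SE, edgeR's adjusted p = 0.862), Hist1h2bc (0.09 ± 0.10, SE, edgeR's adjusted p = 0.635) and Hist1h4i, none of which passed by edgeR or DESeq2 or had an unadjusted p under 0.05; 12 of the 30 were listed at 0.

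**Figure D4:**
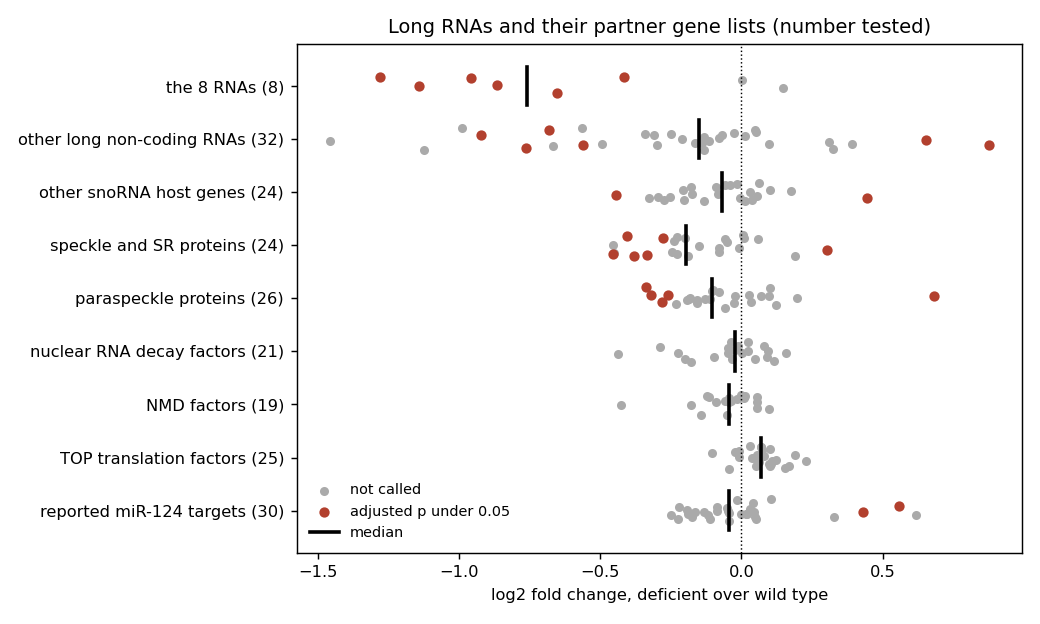
Log2 fold change of deficient over wild-type brain (x axis) for the 8 RNAs and for the tested genes of 8 related lists, members left out. Red points passed at an adjusted p under 0.05, grey points did not, and black bars are list medians, which run from -0.76 for the 8 RNAs to 0.07 for translation factors.

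Markers of brain cell types were detected in every list. Their counts stand beside 2.45% of all tested genes called higher and 2.48% called lower by edgeR. An unadjusted p under 0.05 was found in 3760 of all 15127 tested genes. Of 10 oligodendrocyte markers 2 fell, among them Ugt8a, a gene of myelin lipid synthesis (-0.32 ± 0.07, SE, edgeR's adjusted p = 0.0344), and the summed level of the 10 was 7313, 5979 and 5796 CPM in deficient brains, against 8055, 8388 and 7411 CPM in wild-type brains, without overlap. Summed markers of excitatory neurons (0 of 6 called by edgeR, 2 higher by DESeq2, 4 with an unadjusted p under 0.05) reached 3737, 5097 and 4619 CPM in deficient brains, against 3589, 3365 and 3869 CPM in wild-type brains, and those of neurons in general (0 of 8 called by edgeR, 1 higher by DESeq2, 1 with an unadjusted p under 0.05) 8519 to 9521 CPM in deficient and 8257 to 8636 CPM in wild-type brain. The part of these levels in the falls of the 8 RNAs was not tested. Gja1 among 7 astrocyte markers (3 higher by DESeq2) and Pdgfra among 4 oligodendrocyte precursor markers rose, Hbb-bt among 5 erythrocyte markers fell, and no marker of inhibitory neurons, granule cells, microglia, endothelium or choroid plexus passed by edgeR. Of these lists 2 of 6, 1 of 8, 4 of 8, 2 of 6 and 0 of 5 had an unadjusted p under 0.05, in the order given, and DESeq2 called 2 microglial genes higher and none of the others. Without deficient mouse 2, in which granule cell markers were lowest, the log2 fold changes of Malat1, Snhg11 and Ftx were -1.19, -0.75 and -0.81 and each was called. Miat and A930011O12Rik were called in that fit too, and Snhg1 was not. Summed granule cell markers in deficient mice 1 and 3 were also below every wild-type mouse, so that fit keeps a difference in them between genotypes. Their part in the falls was not tested.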

How the data were processed

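RNA of 6 brains was prepared with the Qiagen RNeasy Mini and Illumina TruSeq RNA kits and sequenced by Illumina's mRNA protocol, per the labels' protocols. The authors deposited raw counts per gene symbol for each mouse, on GRCm38 per the submitters' processing notes; the aligner, counter, annotation and use of strand were not given in the sources used here. Without a known strand setting, reads of overlapping antisense genes cannot be told apart. The authors' DESeq2 columns (mean signal over the mice, log2 fold change and its error, score of the Wald test, p-value), as deposited per the file headers, were not used for results.

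The 8 RNAs were matched by symbol; A930011O12Rik was matched to the annotation through a RefSeq synonym. Genes kept by filterByExpr (minimum count 10) were scaled by TMM and fitted with edgeR 4.0.16 in R 4.3.3, deficient over wild type, without a block. CPM values use the TMM-adjusted totals of the tested genes, and log2 CPM a prior count of 2. Levels per kilobase use merged exons of GENCODE M21. Alternatives were other scalings, other filters, DESeq2 1.42.0, limma 3.58.1 (voom), other thresholds, a replicate block and removal of each mouse. Procedures were tested on simulated data. Members and gene lists were chosen with earlier results of these data known. Named genes outside the members were the flanking tested genes, the 5 of most similar profile to Malat1 and to A930011O12Rik, and in each list up to 6 called genes or, with none called, the 2 with the smallest p; for cell marker lists with none called, summed levels are given in their place. Some genes that this rule names are not reported here.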

Additional observations from a re-analysis of the deposited data

How the results depend on the processing

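With each mouse removed in turn, genes higher in deficient brain over all genes tested numbered 38 to 1101, genes lower in deficient brain over all genes tested 6 to 997, and members called lower 0 to 5. With no filter beyond 1 read, 558 genes were higher and 563 lower, and with DESeq2 611 and 597. At an adjusted p under 0.01 the counts were 41 higher and 3 lower with 0 of the 8 RNAs, and at 0.1 they were 857 higher and 935 lower. The replicate block gave 49 higher and 9 lower genes and called 1 RNA, Malat1. Deviations of same-numbered mice from their genotype means correlated at -0.0604, -0.0602 and 0.14. With 3 mice a genotype these values cannot decide whether the numbers pair the mice. Signs turned in genes with fold changes near 0: the Neat1 log2 fold change was -0.012 without scaling, -0.0015 with the 5 CPM filter, -0.0061 with limma-voom, -0.0038 with the replicate block and -0.12 to 0.12 with a mouse removed, and the Rc3h1 log2 fold change -0.055 to 0.010 with a mouse removed. No fitted log2 fold change of the other 7 RNAs changed sign under these alternatives. With 3 mice a genotype, an exact permutation test of a single value could not go below 0.1. For all of these the cause was not tested. Snhg1 had the fewest reads of the 8, and counting error is largest there.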
